A study of Mus musculus with 4 samples.

Results

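The genes described here are 10 genes of IL-15 and common gamma chain signalling in intestinal intraepithelial lymphocytes (IELs) of the mouse. They are the ligand gene Il15, the receptor genes Il15ra, Il2rb, Il2rg and Il7r, the kinase genes Jak1 and Jak3, the transcription factor genes Stat5a and Stat5b, and the feedback gene Cish. They were chosen by name, for their place in the pathway. All 10 are among the 19339 genes listed in the files, and all 10 are among the 12009 genes that reached at least 1 FPKM in at least 2 libraries and were tested.

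IL-15 is made by epithelial and antigen-presenting cells, which bind it with IL-15Rα (the product of Il15ra, also named CD215) and present it to neighbouring lymphocytes. The lymphocyte receives it through CD122 (Il2rb), which is shared with the IL-2 receptor, and the common gamma chain CD132 (Il2rg), which is shared with the receptors for IL-2, IL-4, IL-7, IL-9 and IL-21. CD122 binds the kinase JAK1 and the common gamma chain binds JAK3, and both phosphorylate STAT5A and STAT5B, which enter the nucleus and activate genes such as Cish, whose product dampens the signal. CD8αα+ IELs depend on IL-15, while IL-7Rα (Il7r) is better known from naive and memory T cells.

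RNA-seq was made from TCRαβ+CD8αα+ IELs that the authors sorted from the small intestine as CD45+CD4-TCRβ+CD8α+CD8β- cells. The 4 libraries comprise 2 labelled control, from Kdm6b fl/fl mice, and 2 labelled Kdm6b-deficient, from Kdm6b fl/fl-CD4Cre mice, numbered 1 and 3 in either group. Both genotypes are of the C57BL/6 strain and carry the floxed Kdm6b alleles, the CD4Cre transgene acts in T cells from the late double-negative stage of the thymus on, each library holds RNA pooled from 3 mice, and the age of these mice is not given in the sources used here. The comparison asks how the transcripts of IL-15 signalling stood in IELs whose T cell lineage was to lack the histone demethylase Kdm6b.

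Each value is an FPKM, a number of fragments relative to the length of the transcript and the depth of its library. The total FPKM was 578491 to 646671 per library. Low values fell on steps that correspond to roughly 11700000 to 14300000 fragments per library. Kdm6b, the deleted gene, had 16.5 and 16.0 FPKM in control replicates 1 and 3, and 18.2 and 11.1 FPKM in the pair labelled Kdm6b-deficient, a log2 fold change of -0.18 (standard error 0.29). FPKM covers every exon of the gene, and which exons are floxed is not given in the sources used here. This value is therefore no check of the deletion, and libraries are called by their labels throughout. Why Kdm6b was not lower in Kdm6b-deficient replicate 1 was not tested. Cd3d, Cd3e, Cd3g and Cd8a were at 182 FPKM or more in every library and Cd8b1 at 1.64 or less, while Cd4, which the sort was to remove, was at 3.17 to 30.6 FPKM. The 22 epithelial marker genes summed to 1472 and 4755 FPKM in control replicates 1 and 3 and to 4478 and 11490 FPKM in the pair labelled Kdm6b-deficient replicates 1 and 3.

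**Figure D1:**
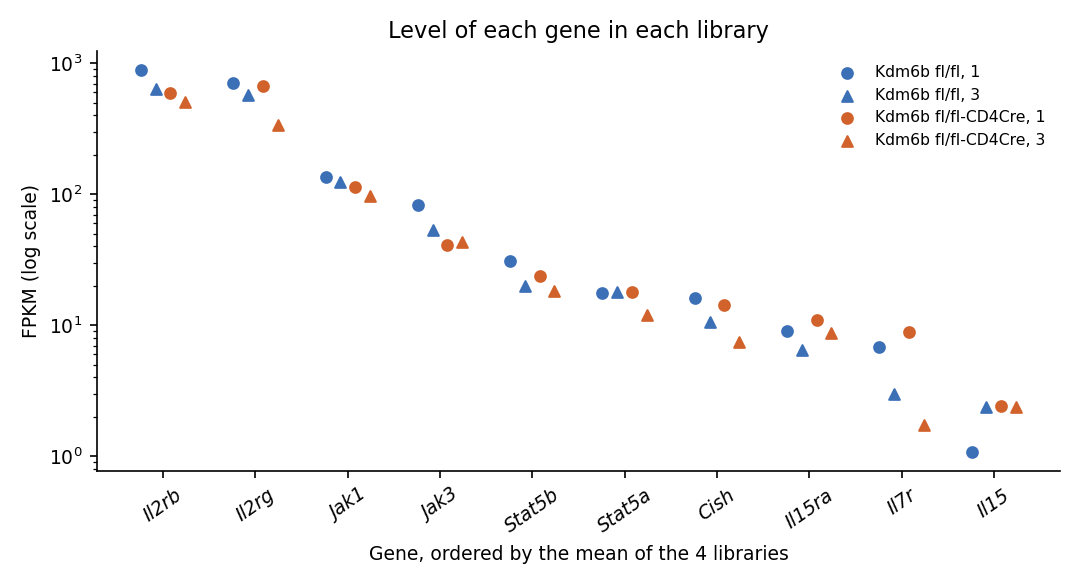
FPKM of the 10 genes on a log axis, with 1 point for each library, blue for control (Kdm6b fl/fl), orange for the pair labelled Kdm6b-deficient (Kdm6b fl/fl-CD4Cre), circles for replicate 1 and triangles for replicate 3. Il2rb and Il2rg stand above 337 FPKM in every library, while Il15 stands at 2.41 FPKM or less.

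The receptor chains that receive IL-15 were by far the most abundant of the 10 transcripts, and the ligand the least abundant. FPKM is scaled to transcript length, so levels of different genes can be set side by side. Averaged over the 4 libraries, Il2rb had 656 FPKM, above 99.0% of the genes tested, and Il2rg had 571 FPKM, above 98.9%. Their ranges overlapped. Jak1 followed at 118 FPKM, Jak3 at 55.3, Stat5b at 23.3 and Stat5a at 16.4 FPKM. From Il2rg to Jak1, from Jak1 to Jak3, from Jak3 to Stat5b and from Stat5b to Stat5a the ranges over the 4 libraries did not overlap, although the last of these gaps was only that between 18.3 and 18.1 FPKM. Cish (12.2 FPKM), Il15ra (8.83), Il7r (5.12) and Il15 (2.06, above 10.4% of the genes tested) followed, and in this lower part each range overlapped with the next. Il7r varied most among the 10, with 5.20 times as high a value in the highest as in the lowest library, and Jak1 least, with 1.39 times.

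Il15 (Entrez 16168, chr8:82331624-82403252 on the minus strand of GRCm38) encodes the ligand. It had 1.08 and 2.36 FPKM in control replicates 1 and 3, and 2.41 and 2.38 FPKM in the pair labelled Kdm6b-deficient. The groups did not overlap, but 3 of the 4 libraries lay within 0.05 FPKM of each other and control replicate 1 alone was low, so the difference rested on that library. The log2 fold change was 0.36 (95% interval -0.57 to 1.29, adjusted p = 0.826 in limma), 0.015 without control replicate 1 and 0.71 without control replicate 3, and 0.55 and 0.58 with pseudocounts of 0.1 and 0.01. At this level the 4 values stand for roughly 16, 35, 36 and 30 fragments. In RNA of a bulk sample, fewer cells of a type and less RNA per cell cannot be told apart. The epithelial marker sum was also lowest in control replicate 1, at 1472 FPKM. In control replicate 3 and Kdm6b-deficient replicates 1 and 3 it was 4755, 4478 and 11490 FPKM, where Il15 was at 2.36, 2.41 and 2.38 FPKM. With the epithelial markers as a covariate the log2 fold change of Il15 was 0.049 (adjusted p = 0.994 in limma). That model adds a term to a fit of only 4 libraries. The part of epithelial cells in the Il15 values was not tested.

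The receptor chains are shown first with the primers that the study designed for its own RT-qPCR, because they mark which part of each transcript was read there. They are written 5′ to 3′ in lower case, each pair lies in neighbouring exons, and coordinates are on GRCm38.
Il2rb forward: caggactgcagggaacatct
Il2rb reverse: gacaggctccagggaagag
Il2rg forward: acagagatcgaagctggacg
Il2rg reverse: gaacccgaaatgtgtaccgt
Il15ra forward: aaggaatgaaaagggagatcg
Il15ra reverse: aattcttgacccggatgtca
The Il2rb pair spans 107 bases from exon 1 (chr15:78494973-78494992, outside the coding sequence) to exon 2 (chr15:78491818-78491836, coding), and 1 of 2 coding transcripts holds both primers. The Il2rg pair spans 96 coding bases from exon 4 (chrX:101266978-101266997) to exon 5 (chrX:101266268-101266287) in both coding transcripts. The Il15ra pair spans 91 bases from exon 1 (chr2:11705545-11705565) to exon 2 (chr2:11718301-11718320) outside the coding sequence, and 4 of 11 coding transcripts hold it. FPKM, in contrast, sums over all isoforms of a gene. The RT-qPCR data were not analysed here.

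Il2rb (Entrez 16185, chr15:78479256-78511621, minus strand), which encodes CD122, had 891 and 636 FPKM in control replicates 1 and 3, and 589.6 and 509 FPKM in the pair labelled Kdm6b-deficient. Both of the latter lay below both controls, with group means of 763 ± 180 FPKM (SD, n = 2) and 549 ± 57.3 FPKM (SD, n = 2). The gap between the groups, from 636 to 589.6 FPKM, was smaller than the distance between the controls. Its log2 fold change was -0.46 (standard error 0.25, 95% interval -1.08 to 0.16, adjusted p = 0.755 in limma), -0.22 without control replicate 1 and -0.035 when libraries were scaled to Cd3 genes and Ptprc. CD3 and other lymphocyte markers went the same way, with 5 of 10 lower in both libraries labelled Kdm6b-deficient (18.6% of all genes were) and sums of 5546 and 4509 FPKM in control replicates 1 and 3 against 4386 and 3143. Taken per 100 FPKM of the geometric mean of Cd3d, Cd3e, Cd3g and Cd247, Il2rb was at 201 and 179 in controls and 164 and 216 in the pair labelled Kdm6b-deficient, and the groups overlapped.

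Il2rg (Entrez 16186, chrX:101264385-101268255, minus strand), which encodes the common gamma chain, had 708 and 571 FPKM in control replicates 1 and 3, and 667 and 337 FPKM in the pair labelled Kdm6b-deficient. Replicate 1 of the latter lay between the controls and replicate 3 below them, so the groups overlapped. Its log2 fold change was -0.42 (95% interval -1.32 to 0.48, adjusted p = 0.793 in limma), and 0.068 without Kdm6b-deficient replicate 3. Of its exonic bases, 728 are shared with Gm20489 on the same strand, so reads of these genes could be split. Per 100 FPKM of the Cd3 genes the 4 values were 160, 161, 185 and 143, a narrower spread than that of the FPKM itself.

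Il15ra (Entrez 16169, chr2:11705172-11733985, plus strand) encodes the private chain of the IL-15 receptor. It had 9.08 and 6.44 FPKM in control replicates 1 and 3, and 10.98 and 8.80 FPKM in the pair labelled Kdm6b-deficient. Unlike the other receptor chains it was higher in the library labelled Kdm6b-deficient than in the control of the same number for both numbers, but the groups overlapped. Its log2 fold change was 0.32 (95% interval -0.41 to 1.06, adjusted p = 0.805 in limma). It stayed positive in all 14 alternative settings, from 0.10 to 0.70.

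The ratio of CD122 to IL-15Rα transcripts did not overlap between the groups, as the plot of within-library ratios shows, but neither did that of many other genes. A ratio of 2 genes in the same library does not depend on how that library was scaled. Il2rb over Il15ra was 98.1 and 98.7 in control replicates 1 and 3, and 53.7 and 57.8 in the pair labelled Kdm6b-deficient. The distance between the groups was many times that between libraries of a group, and on the log2 scale it was -0.82. By any margin, 47.2% of the 12009 genes tested were higher relative to Il2rb in both libraries labelled Kdm6b-deficient than in both controls, and 17.0% were so by a log2 difference at least that of Il15ra. The ratio is given as a description, since the smallest two-sided p of an exact permutation test on these 4 libraries is 0.333. Il15ra per 100 FPKM of the Cd3 genes was 2.05 and 1.81 in the controls and 3.05 and 3.74 in the pair labelled Kdm6b-deficient, again without overlap. Il15 on that scale was 0.243 and 0.664 against 0.669 and 1.01, with a gap of 0.664 to 0.669. Of all genes tested 37.6% were higher without overlap on that scale and 2.14% lower, so that 2 of the 10 genes higher is no more than the share of all genes. Il15ra is also known to act in myeloid and dendritic cells. Among the 7 markers of these cells that were tested, 4 were higher in both libraries labelled Kdm6b-deficient (18.4% of all genes were). The 9 markers in the files summed to 476 and 324 FPKM in control replicates 1 and 3 and 539 and 738 FPKM in the pair labelled Kdm6b-deficient. Lyz2 alone made up most of these sums, with 365, 253, 396 and 626 FPKM in the same order. The epithelial sums given above also moved this way. The sort was to remove both kinds of cell. With the epithelial markers as a covariate the log2 fold changes were 0.64 for Il15ra and -0.15 for Il2rb, and the part of the myeloid list in the ratio was not tested. Il2rb over Il2rg, the pair of signalling chains, was 1.26 and 1.11 in the controls and 0.884 and 1.51 in the pair labelled Kdm6b-deficient, with the 2 groups overlapping. Il2rb over Jak3 was 10.7 and 11.82 in the controls and 14.4 and 11.85 in the other group, which do not overlap by a margin of 11.82 to 11.85. Like Jak3, 1.93% of all genes tested were lower relative to Il2rb without overlap, by any margin.

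**Figure D2:**
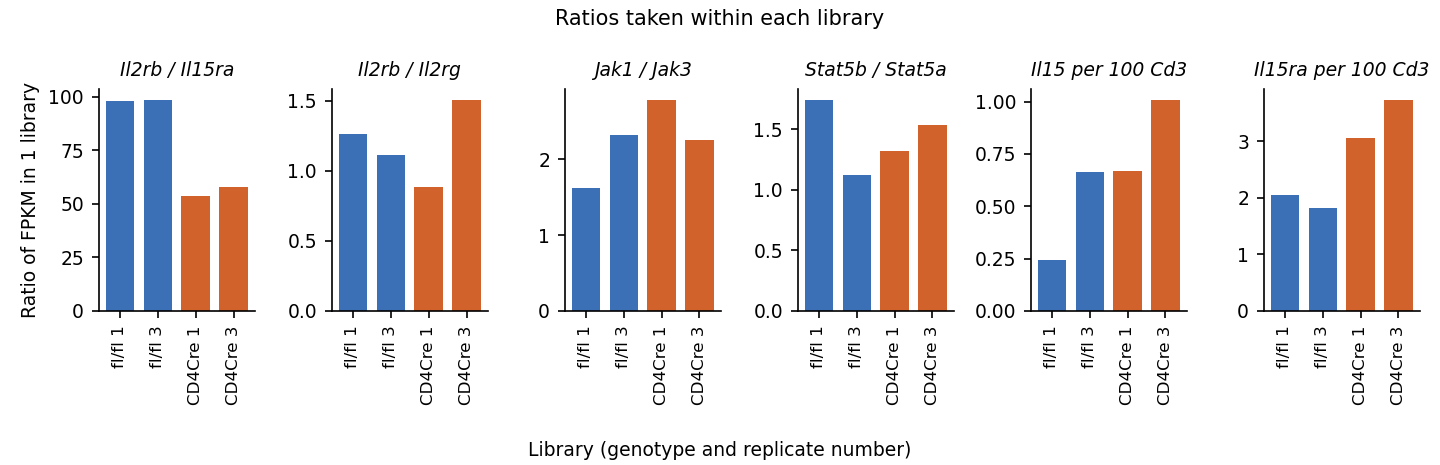
Ratios of FPKM within each library (bars from 0, blue for control and orange for libraries labelled Kdm6b-deficient, numbers 1 and 3 naming the replicate), where per 100 Cd3 means per 100 FPKM of the geometric mean of Cd3d, Cd3e, Cd3g and Cd247. The bars of Il2rb over Il15ra stand at 98.1 and 98.7 against 53.7 and 57.8, without overlap, as by any margin for 47.2% of all genes relative to Il2rb and by at least that log2 difference for 17.0%, while those of Il2rb over Il2rg, Jak1 over Jak3 and Stat5b over Stat5a overlap between the groups.

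Il7r (Entrez 16197, chr15:9506159-9529941, minus strand) encodes the IL-7 receptor α chain, which pairs with the common gamma chain. It had 6.82 and 2.98 FPKM in control replicates 1 and 3, and 8.95 and 1.72 FPKM in the pair labelled Kdm6b-deficient. Both replicate 1 libraries lay above both replicate 3 libraries, whatever the genotype, and the difference between replicates of a group exceeded that between groups. Its log2 fold change was -0.10 (95% interval -1.84 to 1.64, adjusted p = 0.977 in limma), -1.04 without Kdm6b-deficient replicate 1 and 0.83 without Kdm6b-deficient replicate 3. The 6 markers of conventional T cells (Cd4, Cd8b1, Cd5, Thy1, Cd28 and Ccr7) summed to 130.3 and 63.6 FPKM in control replicates 1 and 3, and to 172.5 and 27.35 FPKM in the pair labelled Kdm6b-deficient. In 5 of them both replicate 1 libraries lay above both replicate 3 libraries. Cd28, a costimulatory receptor of conventional T cells, had 29.6, 15.6, 48.8 and 3.28 FPKM in the same order, and Cd8b1 was listed at 0 in control replicate 1. The part of such cells in the Il7r values was not tested.

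**Figure D3:**
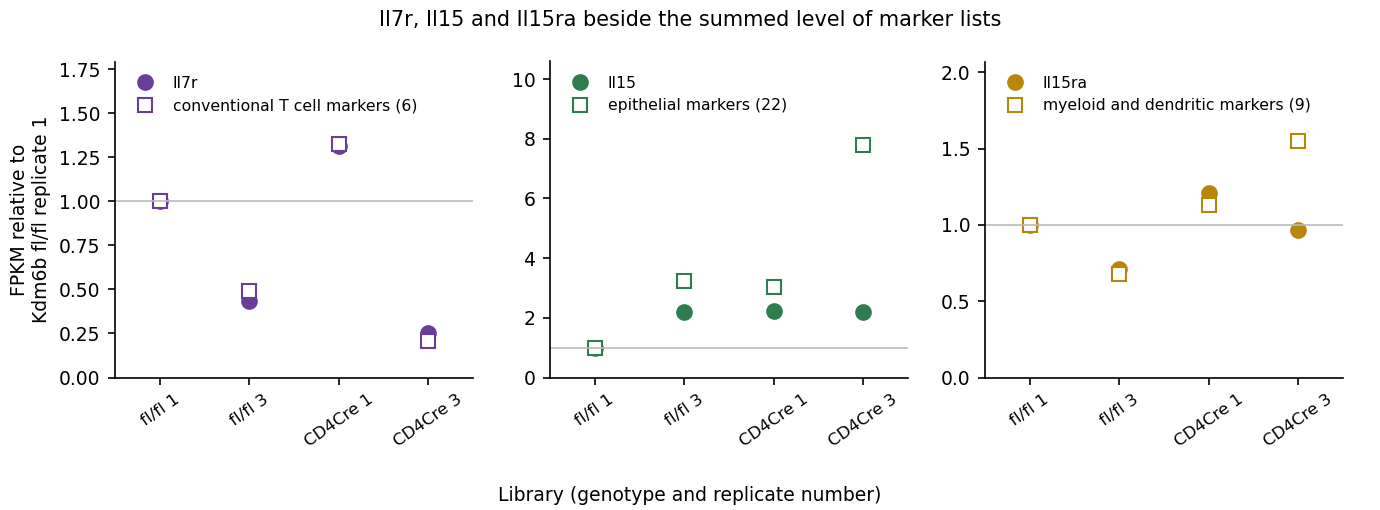
FPKM of Il7r, Il15 and Il15ra (filled circles) and the summed FPKM of a marker list (open squares), each relative to control replicate 1, by library. Il7r stood at 0.437, 1.31 and 0.252 and the conventional T cell markers at 0.488, 1.32 and 0.21 in control replicate 3 and the pair labelled Kdm6b-deficient replicates 1 and 3. Il15 stood at 2.19, 2.23 and 2.2 and the epithelial markers at 3.23, 3.04 and 7.81 in the same order.

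Jak3 had the log2 fold change farthest from 0 among the 10 genes on deposited FPKM with all 4 libraries, but not when libraries were scaled to Cd3 genes and Ptprc, with the epithelial markers as a covariate, or without control replicate 1 or either library labelled Kdm6b-deficient. Jak3 (Entrez 16453, chr8:71676383-71690577, plus strand), the kinase bound to the common gamma chain, had 83.35 and 53.8 FPKM in control replicates 1 and 3, and 40.95 and 42.9 FPKM in the pair labelled Kdm6b-deficient. The latter were close together and below both controls, with group means of 68.6 ± 20.9 FPKM (SD, n = 2) and 41.9 ± 1.39 FPKM (SD, n = 2). Its log2 fold change was -0.66 (standard error 0.25, 95% interval -1.29 to -0.036, adjusted p = 0.755 in limma), so that Jak3 did not pass the test over all genes. It was the 1 gene of the 10 with an unadjusted p under 0.05. The value stayed negative in all 14 alternative settings, from -0.97 to -0.25. Per 100 FPKM of the Cd3 genes the groups overlapped, at 18.8 and 15.1 in the controls and 11.4 and 18.2 in the pair labelled Kdm6b-deficient. Of the exonic bases of Jak3, 404 are shared with Insl3 on the same strand.

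Jak1 (Entrez 16451, chr4:101151974-101265282, minus strand), the kinase bound to CD122 and to many other cytokine receptors, had 135 and 125 FPKM in control replicates 1 and 3, and 114 and 96.7 FPKM in the pair labelled Kdm6b-deficient. The groups did not overlap. Its log2 fold change of -0.30 (95% interval -0.75 to 0.14, adjusted p = 0.757 in limma) turned to 0.12 when libraries were scaled to Cd3 genes and Ptprc, a scaling that moved the median of all genes to 0.38, and was -0.18 without Kdm6b-deficient replicate 3 and -0.16 with the epithelial markers as a covariate. Jak1 over Jak3 was 1.62 and 2.32 in the controls and 2.79 and 2.25 in the pair labelled Kdm6b-deficient, with overlap. No stretch of 50 bases was shared between Jak1 and Jak3 transcripts, so reads of that length separate them.

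Stat5a (Entrez 20850, chr11:100859351-100885169, plus strand) and Stat5b (Entrez 20851, chr11:100780731-100859004, minus strand) encode the transcription factors of the pathway and lie back to back, 346 bases apart. Stat5a had 17.8 and 17.9 FPKM in control replicates 1 and 3, and 18.1 and 11.9 FPKM in the pair labelled Kdm6b-deficient. Thus 3 libraries were alike and Kdm6b-deficient replicate 3 was low. Stat5b had 31.0 and 20.05 FPKM in the controls and 23.85 and 18.3 FPKM in the pair labelled Kdm6b-deficient, where each group holds a higher replicate 1 and a lower replicate 3. Their log2 fold changes were -0.26 (95% interval -0.94 to 0.41) and -0.24 (95% interval -0.96 to 0.47), with adjusted p = 0.826 and 0.843 in limma. Without Kdm6b-deficient replicate 3 the value of Stat5a was 0.020, and without control replicate 1 that of Stat5b was 0.057. Scaled to Cd3 genes and Ptprc they were 0.14 and 0.16, below the median of all genes there. Stat5b was the more abundant in every library, with Stat5b over Stat5a at 1.74 and 1.12 in the controls and 1.32 and 1.54 in the pair labelled Kdm6b-deficient. The 2 genes are close paralogs. Of the windows of 50 bases in the longest coding Stat5a transcript, 15.8% are also found in Stat5b, and of those of Stat5b 11.8% are found in Stat5a, so the split of reads between them carries that uncertainty. At 100 bases the shares were 6.99% and 5.18%.

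Cish (Entrez 12700, chr9:107296659-107302784, plus strand) encodes the SOCS family protein CIS, a STAT5-induced inhibitor of the receptor. It is shown with its promoter because STAT5 dimers bind the motif TTCNNNGAA, which reads the same on both strands. The motif was searched for in RefSeq promoter windows of GRCm38.p6, each from 250 bases before to 50 bases after a start site. That site need not be the outer end of the gene as given here. Of 32851 windows, 8.30% held at least 1 match and 0.457% at least 2. Windows were found for 8 of the 10 genes, not for Il15 and Il2rb. Cish held 2 matches, starting 0 and 11 bases after the start site with 2 bases between them. Il7r held 1 match, starting 142 bases before the start site of its window. No match to these letters lay in the windows of Il15ra, Il2rg, Jak1, Jak3, Stat5a and Stat5b. The Stat5b windows (chr11:100850532-100850831 and chr11:100822521-100822820) lie inside the gene. Those of Stat5a begin at chr11:100859406 and chr11:100860234, after the outer start of the gene. The bases before the outer start of either gene were thus not searched. The sequences run 5′ to 3′ on the strand of the gene, with the matches in capitals, and stand at chr9:107296409-107296678 on the plus strand for Cish and chr15:9529877-9530126 on the minus strand for Il7r.
Cish promoter: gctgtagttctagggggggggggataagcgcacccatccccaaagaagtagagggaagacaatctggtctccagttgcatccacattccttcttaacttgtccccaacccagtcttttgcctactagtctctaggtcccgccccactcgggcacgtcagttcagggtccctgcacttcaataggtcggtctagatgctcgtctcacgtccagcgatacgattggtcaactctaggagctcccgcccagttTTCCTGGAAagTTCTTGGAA
Il7r promoter: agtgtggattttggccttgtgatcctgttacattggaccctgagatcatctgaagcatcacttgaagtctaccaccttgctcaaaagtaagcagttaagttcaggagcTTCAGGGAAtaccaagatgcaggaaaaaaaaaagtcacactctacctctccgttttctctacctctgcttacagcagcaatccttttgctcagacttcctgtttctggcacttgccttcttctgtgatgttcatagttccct
A match is a description of the letters and not a binding site. Cish had 16.2 and 10.6 FPKM in control replicates 1 and 3, and 14.4 and 7.46 FPKM in the pair labelled Kdm6b-deficient. As for Il7r, both replicate 1 libraries lay above both replicate 3 libraries. The log2 fold change of Cish was -0.30 (95% interval -1.27 to 0.66, adjusted p = 0.853 in limma) and turned to 0.13 without Kdm6b-deficient replicate 3. Of its exonic bases, 740 are shared with Gm17040 and Gm17041 on the opposite strand, and whether the counting used strand is not given in the sources used here.

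Over the 10 genes, 0 had an adjusted p under 0.05 in limma, as had 0 of the 12009 genes tested (0%), while an unadjusted p under 0.05 was found for 1 of the 10 and for 642 of all genes. None of the 10 had a log2 fold change above 1, where 6.2% of all genes did, and 0 of the 10 one below -1, where 0.441% did. In 1 gene (Il15) both libraries labelled Kdm6b-deficient lay above both controls, a pattern of 18.4% of all genes. In 3 genes (Il2rb, Jak1 and Jak3) both lay below, a pattern of 18.6% of all genes. The median log2 fold change over the 10 genes was -0.28, against 0.00097 over all genes tested. Of the 10 values 8 were negative, against 49.9% of all genes, although scaled to Cd3 genes and Ptprc only those of Il2rb and Jak3 were, while the other 6 lay between 0 and the median of all genes of 0.38. The median over the 10 genes was -0.56 without control replicate 3, -0.55 without Kdm6b-deficient replicate 1, -0.12 without control replicate 1 and 0.044 without Kdm6b-deficient replicate 3.

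**Figure D4:**
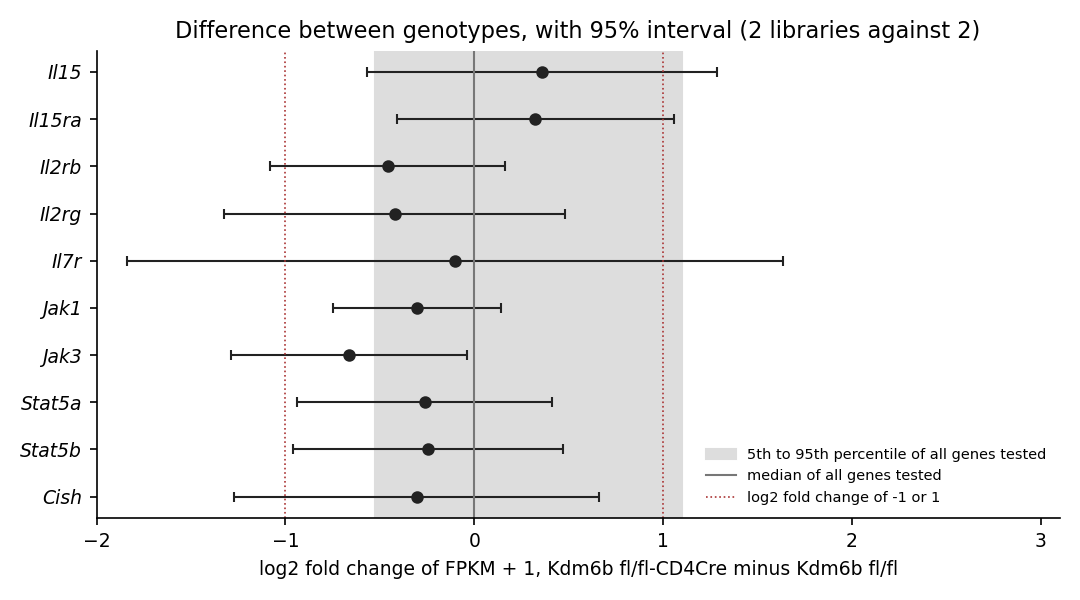
Log2 fold change of each of the 10 genes on the log2(FPKM + 1) scale with its 95% interval from limma, beside the 5th to 95th percentile (-0.53 to 1.10, grey band) and the median (grey line) of all genes tested. The interval of each gene except Jak3 includes 0, and 6 of the 8 values below 0 turn positive when libraries are scaled to Cd3 genes and Ptprc, where the median of all genes is 0.38 and all 8 stay below it.

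Part of the spread followed the replicate number. In 5 of the 10 genes (Il2rg, Il15ra, Il7r, Stat5b and Cish) both replicate 1 libraries lay above both replicate 3 libraries, against 22.8% of all genes tested. Between control replicate 3 and Kdm6b-deficient replicate 1, which had near epithelial marker sums of 4755 and 4478 FPKM, the ratio of the latter to the former was 0.761 for Jak3, 0.913 for Jak1 and 0.927 for Il2rb. In that pair it was 1.01 for Stat5a, 1.02 for Il15, 1.17 for Il2rg, 1.19 for Stat5b, 1.36 for Cish, 1.71 for Il15ra and 3.003 for Il7r. Since both libraries labelled Kdm6b-deficient lay below both controls for Jak3, Jak1 and Il2rb, their ratios had to be below 1 and add no support. Likewise both lay above both controls for Il15, so its ratio had to be above 1. The pair differed in the conventional T cell markers, with sums of 63.6 and 172.5 FPKM, and has no replicate, so the ratios carry no error.

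The other genes of the pathway were read from lists of receptors, kinases, regulators, adaptors and targets written by role, in which Gzmb, Bcl2 and Fasl are genes that the study itself followed. No gene of these lists had an adjusted p under 0.05 in the limma model of genotype alone. Counts of genes without overlap between the groups stand beside 18.6% lower and 18.4% higher of all genes tested, and beside the 10 lymphocyte markers, whose median log2 fold change was -0.52 with 5 lower and 0 higher. Of 6 other cytokines, 5 that signal through the common gamma chain and Tslp, which uses Crlf2 with IL-7Rα, 4 were in the files and 1 was tested, Il4, with 6.36, 4.86, 7.42 and 5.44 FPKM in control replicates 1 and 3 and the pair labelled Kdm6b-deficient replicates 1 and 3. Il2, Il7 and Il21 were at 0.69 FPKM or less in every library.

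Among 5 further receptor chains of these cytokines 4 were tested, 3 of them lower in both libraries labelled Kdm6b-deficient and 0 higher, with a median log2 fold change of -0.55, close to the -0.52 of the lymphocyte markers. Il21r, the private chain of the IL-21 receptor, was the most abundant, with 287 and 212 FPKM in control replicates 1 and 3 and 179 and 116 FPKM in the pair labelled Kdm6b-deficient. All values of the latter lay below the controls (log2 fold change -0.77, standard error 0.28, adjusted p = 0.755 in limma). Crlf2, the private chain of the TSLP receptor, had 25.4 and 18.3 FPKM against 9.88 and 16.2 FPKM (log2 fold change -0.72, adjusted p = 0.755 in limma). The remaining JAK and STAT genes, 7 in all, had negative values with a median of -0.26, and 3 were lower without overlap. Among these 3, Stat4 had -0.44 and Stat3 -0.34.

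Of 16 negative regulators, 7 were lower and 2 higher without overlap, with a median of -0.11, beside 18.6% lower and 18.4% higher of all genes. Cblb, a ubiquitin ligase that restrains T cell activation, had 30.8 and 22.5 FPKM in controls and 18.3 and 15.3 FPKM in the pair labelled Kdm6b-deficient (log2 fold change -0.62). Sh2b3, which encodes the adaptor LNK, had a log2 fold change of -0.43. Of 14 adaptor, PI3K and mTOR genes, 6 were lower and 2 higher without overlap, with a median of -0.15, beside the same shares of all genes. Here Pik3cd, the PI3K subunit p110δ of lymphocytes, had 110.0 and 87.0 FPKM against 70.2 and 60.65 FPKM (log2 fold change -0.58), and Gab2, a scaffold protein, had 1.11 and 1.33 against 1.61 and 4.26 FPKM (log2 fold change 0.74).

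Of 15 genes known as targets of STAT5 or IL-15, 2 were lower and 1 higher without overlap, shares below those of all genes, with a median of -0.18. Gzmb, which encodes granzyme B, was the 1 gene of all these lists past a log2 fold change of 1 in size. It had 3378 and 2488 FPKM in control replicates 1 and 3, and 1515 and 1279 FPKM in the pair labelled Kdm6b-deficient. The groups did not overlap (log2 fold change -1.06, standard error 0.29, adjusted p = 0.755 in limma). Bcl2, the survival gene, had a log2 fold change of -0.61 without overlap. Fasl, which encodes Fas ligand, had 134 and 75.4 FPKM against 116 and 57.4 FPKM and followed the replicate number instead (log2 fold change -0.29). The promoter motif was found in 1 of 9 negative regulators with a window (Socs3) and in 2 of 12 targets (Gzmb and Lta), shares of 11.1% and 16.7%, beside 9.55% of the 27025 genes with a window, a gene counting once if any of its windows held it.

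**Figure D5:**
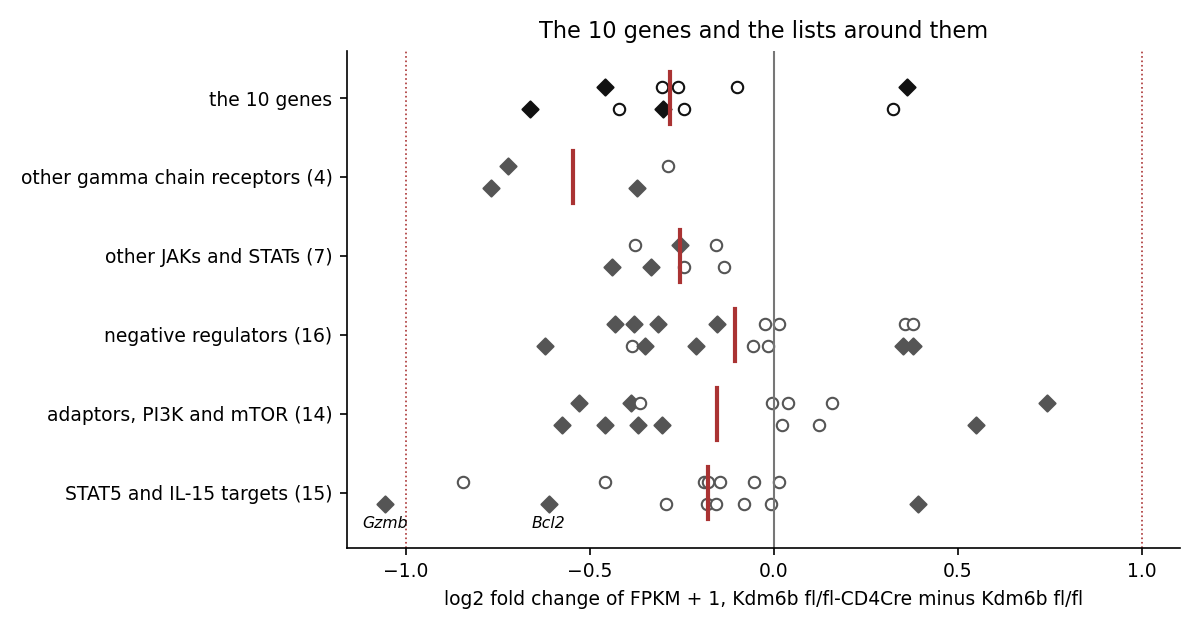
Log2 fold change of each gene tested in the 10 genes and 5 further lists, with filled diamonds for genes whose groups do not overlap, open circles for those that do, and red bars for the median of the list. Gzmb, at -1.06, is the point beyond the dotted line at -1, and the medians run from -0.55 to -0.11 on deposited FPKM, while scaling to Cd3 genes and Ptprc moves that of the 10 genes to 0.13 and that of all genes to 0.38.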

How the data were processed

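The authors sequenced the libraries and, per the labels, used Bowtie2 2.2.5, RSEM 1.2.8 and the builds mm10 and GRCm38.p5. They deposited FPKM values per gene as RSEM gives them, with 2 decimals. Read counts were not used here. Read length, strandedness and annotation version are not given in the sources used here. The FPKM were taken as log2(FPKM + 1) without further scaling, filtered at 1 FPKM in at least 2 libraries and tested in limma 3.58.1 (R 4.3.3; lmFit, then eBayes with its trend option) between 2 control libraries and 2 labelled Kdm6b-deficient, with Benjamini-Hochberg adjustment over 12009 genes. A fold change on this scale understates that of low genes. Called means an adjusted p under 0.05.

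The step of 1 fragment came from low FPKM of single-transcript genes of 500 to 1600 bases, of which 43.6% to 52.3% fell within 0.0055 FPKM of whole fragments, so depth is approximate. The sources do not say how the pools of a group relate, so p-values measure only the spread between these libraries, which may be technical. The members, lists and alternatives were chosen with earlier results of these data known. Named genes are the 10 members, Kdm6b, Gzmb, Fasl, Bcl2 and, in each list, genes called or past a log2 fold change of 1 and the 2 largest differences without overlap. Symbols and coordinates came from RefSeq (GRCm38.p6, 18467 of 19339 identifiers matched), and transcripts and exons from GENCODE. Python 3.11.15 with pandas 2.3.3, numpy 2.4.6 and matplotlib 3.10.9 was used. The other assays of the study were not analysed here. A further marker of conventional T cells is not reported here.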

Additional observations from a re-analysis of the deposited data

How the results depend on the processing

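In 14 alternative settings, 0 of the 10 genes were called by limma, and none of the 10 changed its side of the threshold. Il2rb (-0.70 to -0.035, the latter scaled to Cd3 genes and Ptprc) and Jak3 (-0.97 to -0.25) had negative values throughout, and Il15 (in 13 settings, since it is below a filter of 5 FPKM) and Il15ra positive ones. In a model with a replicate block, 1019 of all genes and 0 of the 10 were called, with adjusted p = 0.0519 for Jak3 and 0.0752 for Il2rb. In the lists the blocked model called Il21r, Pik3cd, Gzmb, Bcl2 and Pim2, the last named after its value was seen, and it also called 20 of the 22 epithelial markers higher and 1 of the 10 lymphocyte markers lower. Same-numbered libraries deviated together (correlation across genes 0.56), but nothing in the labels says that a number marks a shared preparation.

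Genes above 1 and below -1 numbered 1203 and 178 with a pseudocount of 0.1, 1254 and 197 with 0.01, and 1463 and 25 when scaled to Cd3 genes and Ptprc. Those below -1 were 34 with a filter of 5 FPKM and 97 after quantile normalization. Scaling to Cd3 genes and Ptprc gave a median of 0.13 over the 10 genes, with Il2rg at 0.00084, Il7r 0.21, Jak1 0.12, Stat5a 0.14, Stat5b 0.16, Cish 0.082 and Kdm6b 0.22, all below the median of all genes of 0.38. With the epithelial markers as a covariate, 108 genes were called, 351 lay above 1 and 108 below -1, 1 of the 10 lay past 1 (Il7r), and the median was 0.085, with Il2rg at 0.12, Il7r 1.11, Stat5b 0.18, Cish 0.31 and Kdm6b 0.12. The cause of these changes was not tested.

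Leaving out each library in turn, with the lone library of a group assumed to vary like the other group, gave 305 to 1314 genes above 1, 59 to 263 below -1, 0 to 1 of the 10 genes past 1 in size (Il7r without Kdm6b-deficient replicate 1), and a median of -0.56 to 0.044. The ranges were 0.015 to 0.71 for Il15, -0.42 to -0.18 for Jak1, -1.04 to 0.83 for Il7r, -0.91 to 0.068 for Il2rg, -0.54 to 0.020 for Stat5a, -0.55 to 0.057 for Stat5b, -0.74 to 0.13 for Cish and -0.52 to 0.16 for Kdm6b. With 2 libraries a group, the 95% intervals of 9 of the 10 genes include 0, and at 1 to 3 FPKM depth also limits Il15.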
